A study of Mus musculus with 12 samples.

Results

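Nuclear receptors switch genes on and off through coregulators, proteins that do not bind DNA themselves but are recruited by a receptor and change chromatin or contact RNA polymerase II. The expression of 9 coregulator genes was followed in differentiated 3T3-L1 adipocytes: the p160 coactivators Ncoa1, Ncoa2 and Ncoa3, the PGC-1 coactivators Ppargc1a and Ppargc1b, the Mediator subunit gene Med1, the acetyltransferase genes Crebbp and Ep300, and the corepressor gene Ncor1. They were chosen by name, as the rows of the deposited table that carry these symbols, which gave 9 of 39248 rows. Where a symbol had several rows, which was the case for Ncor1, the row with the highest mean over the libraries was used.

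3T3-L1 is an established mouse line of fibroblast-like preadipocytes that accumulates fat once differentiated in culture. All libraries came from differentiated cells electroporated with 0.75 nmol of siRNA 2 days after differentiation, each from its own electroporation. The control arm received a control siRNA (6 libraries) and the knockdown arm 1 of 2 siRNAs against the zinc finger protein gene Zfp407 (3 libraries each). The knockdown columns of the table do not show which siRNA was used, so they form 1 arm of 6, and p-values reflect how electroporations of this single cell line vary, plus any difference between the siRNAs. According to its title, the series concerns how insulin raises glucose uptake and the level of Glut4 mRNA, which encodes the insulin-responsive glucose transporter.

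Zfp407 mRNA averaged 2.83 ± 0.178 FPKM in the control arm and 1.79 ± 0.208 in the knockdown arm (SD, n = 6 each; limma adjusted p = 8.0e-05), with every knockdown library below every control library, and Slc2a4, the gene of that transporter, fell by 0.22 on the log2 scale (adjusted p = 0.00853). FPKM relates fragments to transcript length and to all mapped fragments, so it can be compared between genes, but the absolute depth is unknown. Relative depths, read from the step size of low values, ran from 0.88 to 1.15 of control library 1. Mitochondrial genes held 32.8% of summed FPKM in knockdown library 6 and 19.4% to 26.3% in the others, and leaving that library out changed the call of no member. All 11 adipocyte markers had a mean over the 12 libraries of at least 1 FPKM, summing to between 17298 and 21146 in control and between 15160 and 20033 in knockdown libraries. They did not stay level between the arms: 5 were called lower and 1 higher, which is 54.5% called. Of all 14706 tested rows 36.4% were called, 24.8% lower and 11.6% higher. Among the markers called lower were Pnpla2, a triglyceride lipase gene (597 ± 18.9 and 341 ± 109 FPKM), and Adipoq, the gene of adiponectin (3026 ± 289 and 2476 ± 233). The 1 called higher was the adipogenic factor Cebpa (84.2 ± 2.68 and 111 ± 11.7). The part of these markers in the results below was not tested. Of 9 preadipocyte markers 8 had a mean of at least 1 FPKM (1198 to 1340 against 1067 to 1387 in sum), whereas 0 of 8 brown or beige fat markers did. Of these 8 preadipocyte markers 0 were called higher and 2 lower, which is 25% called. The summed brown or beige markers lay between 0.595 and 1.06 FPKM in control and between 1.08 and 1.71 in knockdown libraries, with Ucp1, the gene of uncoupling protein, near 0. Of the 10 markers of other cells, 8 had a row and 1 had such a mean, Acta2, a smooth muscle actin (43.9 ± 4.29 and 49.3 ± 8.76 FPKM; limma adjusted p = 0.298). In whole cultures, fewer cells of a type and less RNA per cell cannot be told apart.

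As background, the p160 proteins bind a receptor that carries its ligand through short leucine-rich motifs and bring in CBP and p300, the acetyltransferases encoded by Crebbp and Ep300. MED1 links the receptor to the Mediator complex and so to RNA polymerase II, and the PGC-1 proteins are coactivators best known for driving mitochondrial genes. NCOR1 acts in the other direction: it sits on unliganded receptors with the deacetylase HDAC3 and the TBL1 proteins and keeps their targets low. In fat cells these proteins meet on PPARgamma, the receptor that drives adipocyte differentiation and is the target of thiazolidinedione drugs.

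Most of the 9 coregulator genes differed little between the arms. Ppargc1b was 28.5% higher and Med1 16.8% higher in the knockdown arm, both past the threshold (limma on log2(FPKM + 1), Benjamini-Hochberg adjusted p under 0.05), and no member was called lower. The 2 called members make up 22.2% of the 9, beside 36.4% of all 14706 tested rows, of which 11.6% were called higher and 24.8% lower. The share of members called is thus not above that of the table as a whole. The log2 fold change of knockdown over control, also called log2 difference here, had a median of 0.03 over the members, −0.05 over all tested rows and −0.07 over the 9436 tested protein-coding genes. Med1 was the 1 member of 9 in which no knockdown library overlapped a control library, a separation seen in 19.5% of tested rows. Against a minimum fold of 1.2, 0 of 9 members passed, compared with 5.82% of tested rows, and the authors' deposited table marks 0 of 9 as significant, with 3 of them (Ncoa3, Ppargc1a and Crebbp) set as failed and without a test.

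One feature of the deposited values limits how small changes can be read. In rows with a mean under 0.5 FPKM, where values step by single reads, the worth of 1 read differed between the arms in 346 of 1137 rows (30.4%), by a median of 0.164 on the log2 scale where it differed. Within an arm it differed in 19 of 489 and 15 of 537 rows. The 90th percentile over all 1137 rows was 0.234 on the log2 scale, which the difference of Ppargc1b exceeds and those of Med1 and Ncor1 do not. Whether the member rows carry such a term was not tested.

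**Figure D1:**
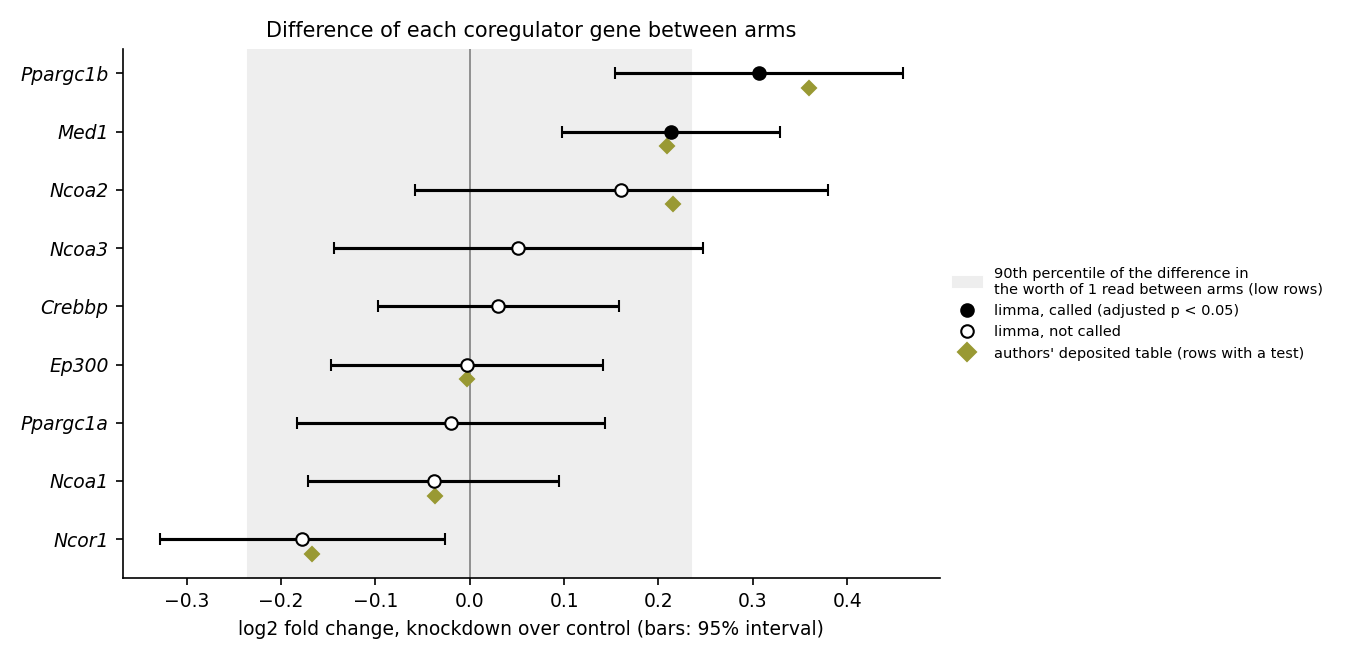
Log2 fold change of each coregulator gene, knockdown over control (x axis), with its 95% interval (bars, n = 6 libraries per arm); filled points were called by limma, diamonds are the log2 fold changes of the authors' deposited table for the 6 genes it tested, and the grey band spans 0.234 on either side of 0, the 90th percentile of how far 1 read's worth differed between arms in low rows. Ppargc1b lies to the right of the band, Med1 inside it, and the interval of Ncor1 lies below 0 although the gene was not called.

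The 9 genes differed far more from each other than between the arms. Ncor1 stood apart at 130.2 ± 6.13 FPKM in control libraries (SD, n = 6), above 92.8% of tested protein-coding genes and 6.75 times the next gene, Med1. Med1 (19.3 ± 1.18) and Ncoa1 (16.9 ± 1.01) lay near the middle of the tested protein-coding genes, above 54.9% and 50.8% of them, and their control values overlapped. Ncoa2 (12.7 ± 1.91 FPKM) came next, with no control library reaching those of Ncoa1. Ep300 (8.77 ± 0.795), Ppargc1a (6.90 ± 0.775), Ncoa3 (5.63 ± 0.718) and Ppargc1b (5.54 ± 0.341) followed, each overlapping its neighbour in that order, although every control value of Ep300 lay above those of Ncoa3 and Ppargc1b. Crebbp was lowest at 3.75 ± 0.315 FPKM, below every control value of Ppargc1b and above only 13.9% of tested protein-coding genes. By these values the corepressor mRNA was thus the most abundant of the 9, and that of CBP the least. The row of Ncor1 shares its locus with other rows, and how reads were divided there was not tested.

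**Figure D2:**
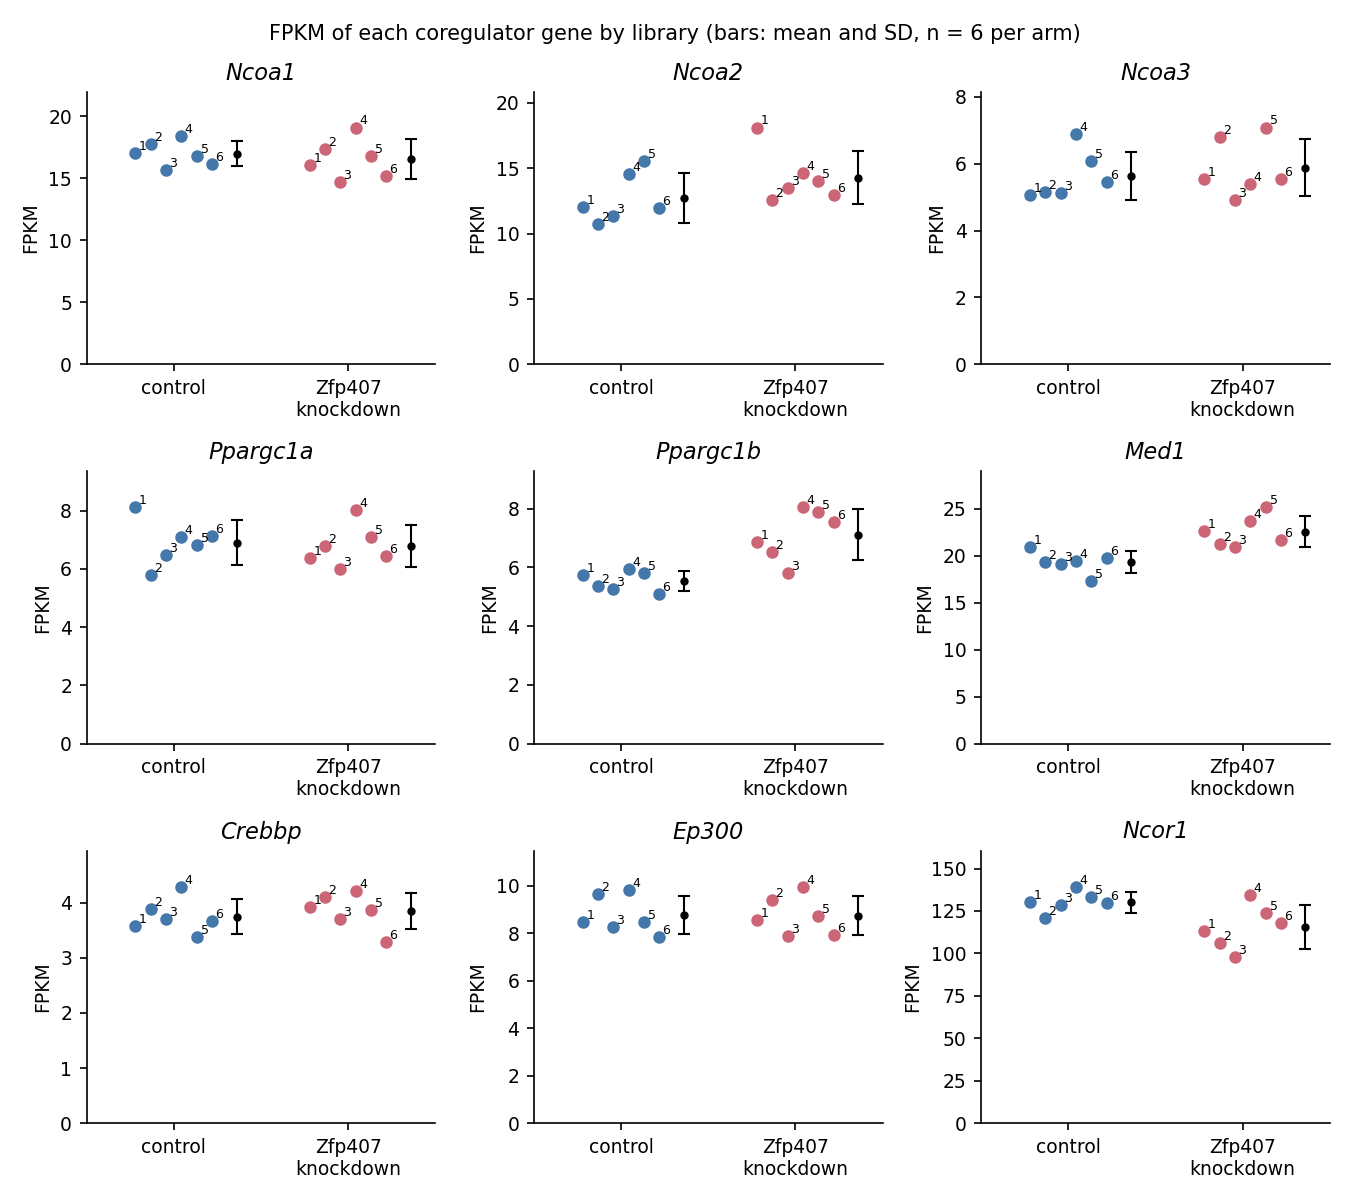
FPKM (y axis, starting at 0) of the 9 coregulator genes in the 6 control and 6 knockdown libraries (points, numbered by library), with the mean and SD of each arm beside them. The arms of Med1 do not overlap, Ppargc1b overlaps in knockdown library 3 alone, 4 of 6 knockdown values of Ncor1 lie below all control values, and the other 6 genes overlap broadly.

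Among the PGC-1 genes, Ppargc1b rose and Ppargc1a did not pass the test. PGC-1beta, the product of Ppargc1b (XLOC_015806, chromosome 18, 61291447 to 61400540, minus strand; this and later positions are the table's, with 1 added to the start so that they count from 1, on GRCm38), coactivates estrogen-related receptors and supports mitochondrial gene expression. Its FPKM ran from 5.09 through a median of 5.55 to 5.95 in control libraries and from 5.80 through 7.21 to 8.06 in knockdown libraries. Of the 6 knockdown libraries, 5 lay above the highest control library and knockdown library 3, at 5.80, lay within the control range. The means were 5.54 ± 0.341 and 7.12 ± 0.874 FPKM (SD, n = 6 each), a log2 fold change of 0.31 (SE 0.07, 95% interval 0.15 to 0.46, limma adjusted p = 0.00474), and the two-sided exact permutation test gave p = 0.00649. For Ppargc1b the authors' deposited table gives a log2 fold change of 0.36, an unadjusted p-value of 0.0667 and a q-value of 0.876. Of the 9 genes, Ppargc1b had the largest log2 fold change. The brown or beige fat markers stayed low, each under a mean of 1 FPKM. Their sums above separate the arms only narrowly (at most 1.06 in control, at least 1.08 in knockdown libraries). Cidea made up most of these sums, at 0.604 and 1.18 FPKM in the mean of each arm. Ucp1 stood at 0.0032 and 0.0064, and Prdm16, which was lower in the knockdown arm, at 0.0013 and 0.00053. The part of these markers in the result was not tested.

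PGC-1alpha, the product of Ppargc1a (XLOC_026533, chromosome 5, 51454249 to 51567725, minus strand), is the inducible relative that is known from brown fat, muscle and liver. Ppargc1a ran from 5.78 through a median of 6.94 to 8.12 FPKM in control and from 6.01 through 6.61 to 8.03 in knockdown libraries, so every knockdown value lay within the control range. The means of 6.90 ± 0.775 and 6.79 ± 0.713 FPKM differ by −0.02 on the log2 scale (SE 0.08, 95% interval −0.18 to 0.14, adjusted p = 0.856; exact permutation p = 0.786). The interval excludes a rise of the size seen in Ppargc1b.

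Because the ratio of 2 genes in the same library does not depend on how that library was scaled, the balance of the PGC-1 genes was compared as well. Ppargc1a exceeded Ppargc1b in every control library, with a ratio of 1.24 (geometric mean, range 1.08 to 1.42). In knockdown libraries the ratio was 0.956 (0.852 to 1.04), all 6 of them below the lowest control library. The difference of −0.38 on the log2 scale had p = 0.00216 in the exact permutation test, the smallest that 924 divisions of the libraries can give, and 0.00649 adjusted over the 3 ratios compared. Since a gene's own arm-wide term in the worth of 1 read would also enter a ratio, this comparison does not remove that limit.

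The row of Ppargc1b shares its locus with a second row, AC116595.1, singled out here after its values were seen. AC116595.1 stood at 0.998 ± 0.226 FPKM in control and 4.43 ± 4.44 in knockdown libraries (log2 difference 1.19, adjusted p = 0.0123), and all 6 knockdown libraries lay above the highest control library. Knockdown library 1 reached 13.4 FPKM while the others lay between 2.05 and 3.54. Without that library the log2 fold change of AC116595.1 was 0.85 (adjusted p = 2.3e-04). Its control mean lies under the filter of 1 FPKM, so the row was tested only through the knockdown arm. Its p-values are therefore not independent of the difference they describe. Whether the authors' estimation divided reads between the rows at this locus, and whether this entered the value of Ppargc1b, was not tested. The loci of Ncoa1 (3 rows) and of Ncoa2, Ep300 and Med1 (2 rows each) are shared as well.

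**Figure D3:**
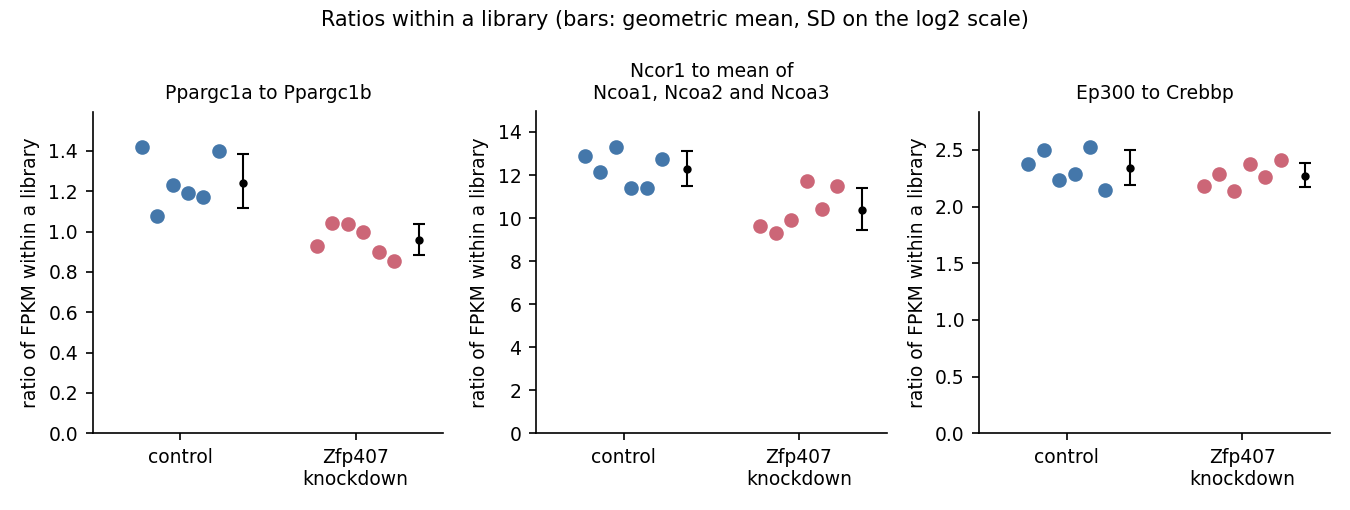
Ratios of FPKM within a library (y axes, starting at 0) for Ppargc1a to Ppargc1b, Ncor1 to the mean of Ncoa1, Ncoa2 and Ncoa3, and Ep300 to Crebbp; points are libraries, and the symbol beside them is the geometric mean with the SD on the log2 scale (n = 6 per arm). The first ratio separates the arms, the second is lower in the knockdown arm with some overlap, and the third overlaps.

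Genes tied to the PGC-1 proteins were read from a list of their partners, targets and regulators. Of its 27 genes 16 were tested, and 3 were called higher and 2 lower (31.25% called, against 36.4% of all tested rows). Their median log2 fold change was 0.09. With each library centred on its median the split was 5 higher and 1 lower, and with quantile normalization 4 and 1. Cycs, which encodes cytochrome c of the respiratory chain, rose from 134 ± 13.3 to 191 ± 27.7 FPKM (log2 difference 0.50, adjusted p = 0.00222). Mef2d, a transcription factor of the MEF2 family, and Pdk4, which restrains glucose oxidation, rose by 0.23 and 0.20 on the log2 scale (adjusted p = 0.0356 and 0.0222). Fbxw7, part of a ubiquitin ligase that degrades PGC-1alpha, fell by 0.20 (adjusted p = 0.0213) and Nrf1, a regulator of nuclear-encoded mitochondrial genes, by 0.17 (adjusted p = 0.0329). Leaving out any of 6 libraries ended the call of Nrf1 (adjusted p 0.0513 to 0.0716) and any of 7 that of Mef2d (0.0545 to 0.0740), and Nrf1 was not called with either of these scalings. The list holds 3 calls without control library 1 and 3 without control library 4.

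Med1 was the other coactivator gene that rose. MED1 (XLOC_005986, chromosome 11, 98152098 to 98193293, minus strand), also known as PPAR-binding protein, is the Mediator subunit that nuclear receptors contact. Its FPKM ran from 17.3 through a median of 19.4 to 20.9 in control libraries and from 20.94 through 22.1 to 25.2 in knockdown libraries. The lowest knockdown value lay just above the highest control value, so the separation of the arms is narrow. The means were 19.3 ± 1.18 and 22.5 ± 1.62 FPKM (SD, n = 6 each), a log2 fold change of 0.21 (SE 0.05, 95% interval 0.10 to 0.33, limma adjusted p = 0.00781), with an exact permutation p of 0.00216. For Med1 the authors' deposited table gives a log2 fold change of 0.21 with p = 0.683 before adjustment.

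The other Mediator subunits did not share 1 direction. Of 32 listed genes 28 were tested, and 4 were called higher and 4 lower (28.6% called, against 36.4% of all tested rows). Their median log2 fold change was 0.05. Med17, a subunit of the Mediator head, rose from 8.40 ± 0.379 to 9.97 ± 0.478 FPKM (log2 difference 0.22, adjusted p = 9.4e-04), with the arms apart. Med26, which couples Mediator to elongation factors, rose by 0.23 on the log2 scale (adjusted p = 0.00715), also with the arms apart, and Med4 and Med31, of the middle part of Mediator, by 0.25 and 0.27 (adjusted p = 0.00172 and 0.0175). Med25, also a contact of nuclear receptors, fell by 0.26 (adjusted p = 0.00923), and Cdk19, a kinase of the dissociable Mediator module, fell by 0.25 (adjusted p = 0.0122). Med11, a subunit of the head, fell by 0.24 (adjusted p = 0.0321), a call that leaving out any of 7 libraries ended (0.0560 to 0.0697). Med24, a subunit of the Mediator tail, fell from 32.8 ± 9.25 to 21.3 ± 7.54 FPKM (log2 difference −0.61, adjusted p = 0.0460). Its spread was wide: knockdown library 1 stood at 35.9 FPKM, leaving out any of 9 libraries ended the call (0.0628 to 0.0952), and so did centring or quantile normalization.

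None of the p160 genes passed the test. Ncoa2 (XLOC_000980, chromosome 1, 13139105 to 13374172, minus strand), whose product GRIP1 is also a partner of the glucocorticoid receptor, ran from 10.7 through a median of 11.99 to 15.5 FPKM in control and from 12.6 through 13.7 to 18.1 in knockdown libraries. Its means of 12.7 ± 1.91 and 14.3 ± 2.02 FPKM correspond to a log2 fold change of 0.16 (SE 0.10, 95% interval −0.06 to 0.38, adjusted p = 0.236; exact permutation p = 0.165). Knockdown library 1 held the highest value, 18.1 FPKM, and without a single library in turn the log2 fold change lay between 0.09 and 0.22. This interval is the widest of the 9 and includes the size seen in Ppargc1b.

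Ncoa1 (XLOC_007195, chromosome 12, 4247274 to 4477199, minus strand) encodes SRC-1, the first p160 protein described. It ran from 15.6 through a median of 16.9 to 18.4 FPKM in control and from 14.6 through 16.4 to 19.1 in knockdown libraries, with means of 16.9 ± 1.01 and 16.5 ± 1.60. The log2 fold change was −0.04 (SE 0.06, 95% interval −0.17 to 0.10, adjusted p = 0.657; exact permutation p = 0.550). Ncoa3 (XLOC_018683, chromosome 2, 165992619 to 166155699, plus strand), known as a gene amplified in breast cancer, ran from 5.07 through 5.31 to 6.88 FPKM in control and from 4.91 through 5.54 to 7.08 in knockdown libraries. Its log2 fold change was 0.05 (SE 0.09, 95% interval −0.14 to 0.25, adjusted p = 0.686; exact permutation p = 0.597). The Ncoa3 locus also holds Sulf2, a heparan sulfate sulfatase gene, at 28.1 ± 1.62 and 29.8 ± 4.00 FPKM (adjusted p = 0.554).

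The 2 acetyltransferase genes were close to equal between the arms. CBP, the product of Crebbp (XLOC_012827, chromosome 16, 4081365 to 4213404, minus strand), and p300, the product of Ep300 (XLOC_011410, chromosome 15, 81585303 to 81652143, plus strand), acetylate histones at enhancers. Crebbp ran from 3.37 through a median of 3.68 to 4.29 FPKM in control and from 3.29 through 3.89 to 4.20 in knockdown libraries. Ep300 ran from 7.85 through 8.50 to 9.81 and from 7.91 through 8.64 to 9.98 FPKM. The log2 fold change of Crebbp was 0.03 (SE 0.06, 95% interval −0.10 to 0.16, adjusted p = 0.718; exact permutation p = 0.595) and that of Ep300 was 0.00 (SE 0.07, 95% interval −0.15 to 0.14, adjusted p = 0.977; exact permutation p = 0.959). Both intervals exclude a rise of the size seen in Med1. The ratio of Ep300 to Crebbp was 2.34 in control (2.14 to 2.52) and 2.27 in knockdown libraries (2.14 to 2.41), a difference of −0.04 on the log2 scale (exact permutation p = 0.394, and 0.394 adjusted over the 3 ratios).

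Ncor1 was lower in most knockdown libraries but was not called in the main comparison of the arms. Its row (XLOC_005506, chromosome 11, 62281473 to 62516293, minus strand) ran from 121 through a median of 129.9 to 139 FPKM in control libraries and from 97.9 through 116 to 135 in knockdown libraries. Of the 6 knockdown libraries 4 lay below the lowest control library, and knockdown library 4, at 135 FPKM, lay above the control mean. The means were 130.2 ± 6.13 and 116 ± 13.0 FPKM (SD, n = 6 each), so that the knockdown mean was 11.3% lower. Ncor1 had a log2 fold change of −0.18 (SE 0.07, 95% interval −0.33 to −0.03), with a limma adjusted p of 0.0639 and an exact permutation p of 0.0325, unadjusted. Leaving out 1 library in turn gave log2 fold changes of −0.22 to −0.13, with limma adjusted p from 0.0141 to 0.126. The gene was called only without knockdown library 4, which holds the highest Ncor1 value of its arm (−0.22, adjusted p = 0.0141). For Ncor1 the authors' deposited table gives a log2 fold change of −0.17 with p = 0.623 before adjustment.

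The Ncor1 locus holds 7 rows, so its value may depend on how the authors' estimation divided the reads. The second row of the symbol was at 1.86 ± 0.773 FPKM in control and 2.57 ± 0.577 in knockdown libraries (log2 difference 0.35, adjusted p = 0.137), a small part of the first. Ttc19, a mitochondrial protein gene of the same locus, fell by 0.16 on the log2 scale (adjusted p = 0.0109) and Pigl, of the same locus, stood at −0.09 (adjusted p = 0.329). These neighbours were named for their position and after their values were seen.

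Set against the p160 genes within each library, Ncor1 was lower in the knockdown arm. The ratio of Ncor1 to the mean of Ncoa1, Ncoa2 and Ncoa3 was 12.3 in control libraries (geometric mean, range 11.4 to 13.3) and 10.4 in knockdown libraries (9.29 to 11.7). Each of the 6 knockdown libraries lay under the control mean and 4 under the lowest control library. The difference was −0.24 on the log2 scale, with an exact permutation p of 0.0130 and 0.0195 adjusted over the 3 ratios. Knockdown library 4, the library with the highest Ncor1 value of its arm, also had the highest ratio there, at 11.7.

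In the list of corepressor complexes 27 of 29 genes were tested, and 4 were called higher and 7 lower (median log2 fold change −0.05). That is 40.7% called, beside 36.4% of all tested rows. The enzymatic partner of NCOR1 fell: Hdac3 went from 47.7 ± 0.779 to 39.2 ± 1.91 FPKM (log2 difference −0.28, adjusted p = 8.5e-05), with the arms apart. Tbl1x, which encodes a scaffold of the same complex, went from 41.3 ± 1.05 to 34.9 ± 3.15 FPKM (log2 difference −0.24, adjusted p = 0.00405), also with the arms apart. Tbl1xr1 and Gps2, further genes of that complex, did not pass the test, at 0.06 each on the log2 scale (adjusted p = 0.341 and 0.453). Both were named after their values were seen.

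Further corepressor genes moved in both directions. Nrip1, whose product RIP140 represses oxidative genes in white fat, fell from 31.4 ± 1.91 to 25.9 ± 2.78 FPKM (log2 difference −0.27, adjusted p = 0.00765). Cbx5, the gene of the heterochromatin protein HP1alpha, fell from 68.1 ± 6.07 to 50.7 ± 10.3 FPKM (log2 difference −0.44, adjusted p = 0.0119). Trim28, the gene of KAP1, the corepressor of KRAB zinc finger proteins, rose from 119 ± 8.37 to 150.5 ± 7.64 FPKM (log2 difference 0.34, adjusted p = 4.2e-04), with the arms apart. Tle3, whose product favours the white fat programme, rose from 26.2 ± 1.82 to 33.0 ± 3.46 FPKM (log2 difference 0.32, adjusted p = 0.00304), with the arms apart as well. The rises of Rbbp4 and Sin3b, subunits of deacetylase complexes, were 0.16 and 0.12 on the log2 scale (adjusted p = 0.0326 and 0.0328), and leaving out any of 7 and 6 libraries, respectively, ended these calls (0.0547 to 0.0724 and 0.0564 to 0.0737). With each library centred on its median the list held 5 higher and 5 lower calls, and with quantile normalization 6 and 4.

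**Figure D4:**
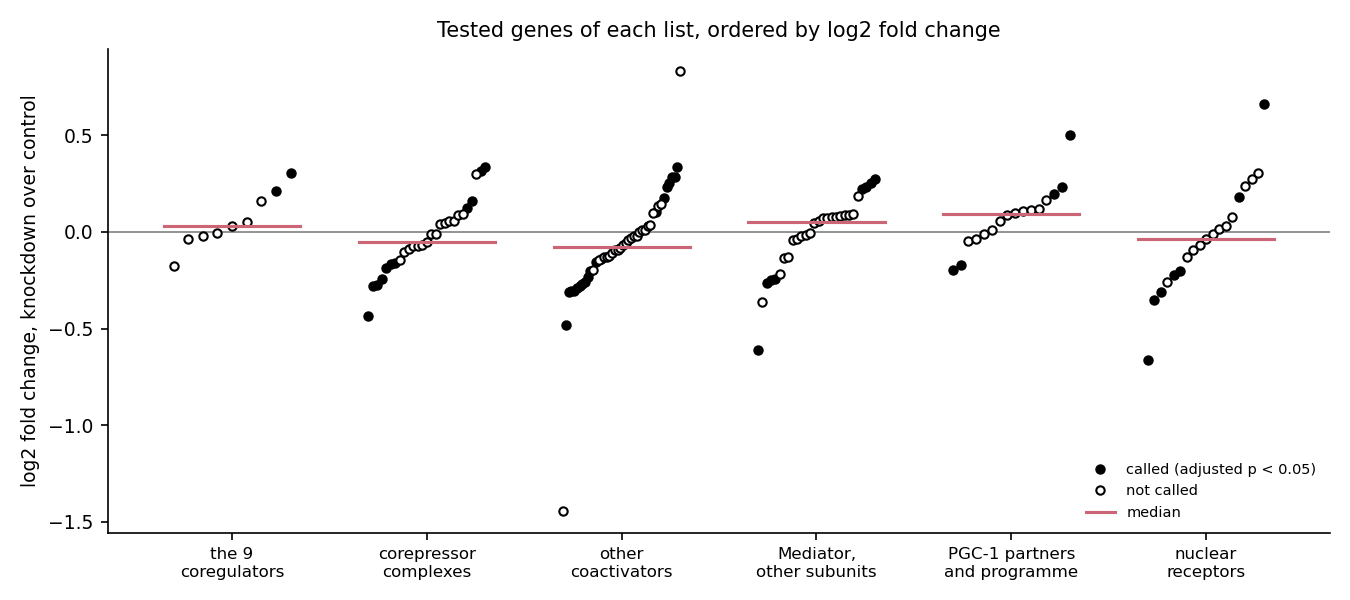
Log2 fold change, knockdown over control (y axis), of every tested gene in the 9 coregulators and in each of the 5 lists, ordered within its list; filled points were called by limma, and the red line is the median. Called genes stand on both sides of 0 in each of the 5 lists, and the 2 called coregulators are both above 0. The lowest open point among the other coactivators, picked out after seeing it, is Prmt2 (−1.44, adjusted p = 0.0889).

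Among 53 other coactivators 44 were tested, with 7 called higher and 12 lower (43.2% called, against 36.4% of all tested rows). Their median log2 fold change was −0.08. Kat2b, the gene of the acetyltransferase PCAF, fell from 78.4 ± 11.9 to 55.7 ± 7.96 FPKM (log2 difference −0.48, adjusted p = 0.00787). Smarcd3, a subunit of the SWI/SNF remodelling complex, fell by 0.31 on the log2 scale, Nsd1, a histone methyltransferase, by 0.31 and Wwtr1, the Hippo pathway coactivator TAZ that restrains PPARgamma, by 0.30 (adjusted p = 1.4e-04, 2.6e-04 and 6.6e-04), each with the arms apart. Paxip1, a subunit of the MLL3 and MLL4 methyltransferase complexes that are needed for adipogenesis, rose from 9.79 ± 0.280 to 12.2 ± 0.590 FPKM (log2 difference 0.29, adjusted p = 8.3e-05). Brd8, a bromodomain protein of an acetyltransferase complex, rose by 0.34 (adjusted p = 0.00127), and for both genes the arms did not overlap. Ncoa4, which is also the receptor for ferritin breakdown, rose by 0.25 (adjusted p = 0.00261). Pprc1, the PGC-1 related coactivator and the third gene of that family, rose by 0.28 (adjusted p = 0.0340), a call that leaving out any of 7 libraries ended (0.0575 to 0.0734). The split of this list was 8 higher and 9 lower with centring, and 9 and 9 with quantile normalization, while all tested rows split into 2307 higher and 3146 lower with centring.

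The receptors that these coregulators serve were split too. Of 23 nuclear receptor genes 19 were tested, with 2 called higher and 5 lower (median log2 fold change −0.04). The share called was 36.8%, beside 36.4% of all tested rows. In 6 of the 19 the arms did not overlap, a separation seen in 19.5% of all tested rows. With centring the split was 5 higher and 5 lower, and with quantile normalization 4 and 4. Pparg itself was not called (255 ± 6.39 and 244 ± 21.9 FPKM, log2 fold change −0.07, adjusted p = 0.369). Nr1h3, the gene of the oxysterol receptor LXRalpha, fell from 51.5 ± 5.40 to 32.1 ± 3.12 FPKM (log2 difference −0.66, adjusted p = 8.0e-05). Nr4a1, an immediate early gene that encodes an orphan receptor, rose from 10.1 ± 0.314 to 16.6 ± 1.30 FPKM (log2 difference 0.66, adjusted p = 9.2e-07). These were the only genes of the 5 lists that passed the minimum fold of 1.2. Thra, a thyroid hormone receptor gene, fell by 0.31 on the log2 scale and Rarg, a retinoic acid receptor gene, by 0.22 (adjusted p = 0.00480 and 0.00966). The locus of Thra also holds Nr1d1, named after its values were seen, at 0.28 (adjusted p = 0.0501, not called). The locus of Nr1h3 holds 4 rows. Whether the division of reads at these loci entered the values was not tested. Nr1h2, the gene of LXRbeta, rose by 0.18 (adjusted p = 0.00391). Rxrg, a retinoid X receptor gene, stood at 1.25 ± 0.234 and 0.762 ± 0.115 FPKM, 39.2% lower (−0.35 on log2(FPKM + 1), adjusted p = 0.00508). It reached the mean of 1 FPKM needed for testing only through the control arm, so its test was not independent of its difference. Rxrg is among the 5 called lower and the 6 without overlap.

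Within an arm, the 9 genes tended to be high or low in the same libraries. Deviations from the arm mean were positively correlated in 35 of 36 pairs over the 12 libraries (median Pearson r 0.361), a description of points that share library and depth. In the knockdown arm they also hold any difference between the 2 siRNAs, which the columns do not show. Seen afterwards, knockdown libraries 1, 2 and 3 lay below 4, 5 and 6 for Ppargc1b (5.80 to 6.87 against 7.55 to 8.06 FPKM). The same held for Ncor1 (97.9 to 113 against 118 to 135), while the other members overlapped. Genes outside the members, such as Pnpla2 (238 to 258 against 379 to 476 FPKM), showed this order as well. The share of all tested rows that do so was not counted, and no label ties these column numbers to an siRNA. The closest pairs were Ncoa1 with Ep300 (r = 0.931), Ppargc1b with Ncor1 (0.917) and Crebbp with Ep300 (0.802), and the least alike were Ncoa2 and Med1 (−0.11). In control library 4 all 9 members lay above their arm mean and 6 had their highest control value there. In knockdown library 4, 8 did and 6 had their highest knockdown value there. In control library 3 and knockdown library 3, 0 of 9 lay above the arm mean. How often other genes do the same was not counted, so neither these counts nor the correlations can be called particular to the members.

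The members encode long transcripts, the longest annotated one of each running from 3656 bases for Ppargc1b to 10820 bases for Crebbp, and the library pattern was set beside that of the 4308 other tested protein-coding genes whose longest transcript is at least as long. In knockdown library 4 the median deviation was 0.17 on the log2 scale for the members, 0.07 for the other long genes and 0.04 for shorter genes, and in knockdown library 3 it was −0.15, −0.05 and −0.01. In control library 4 the 3 medians were 0.11, 0.02 and −0.03. In these 3 libraries the members deviated in the same direction as other long genes. They are the libraries where the members' own medians lie farthest from 0, so the larger size for the members follows from that choice. Elsewhere the medians of members and other long genes varied: −0.071 and −0.005 in control library 3, −0.063 and −0.056 in knockdown library 6, and −0.011 and 0.023 in control library 5. Of the other long genes 36.6% were called, 354 higher and 1221 lower, with a median log2 fold change of −0.08.

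**Figure D5:**
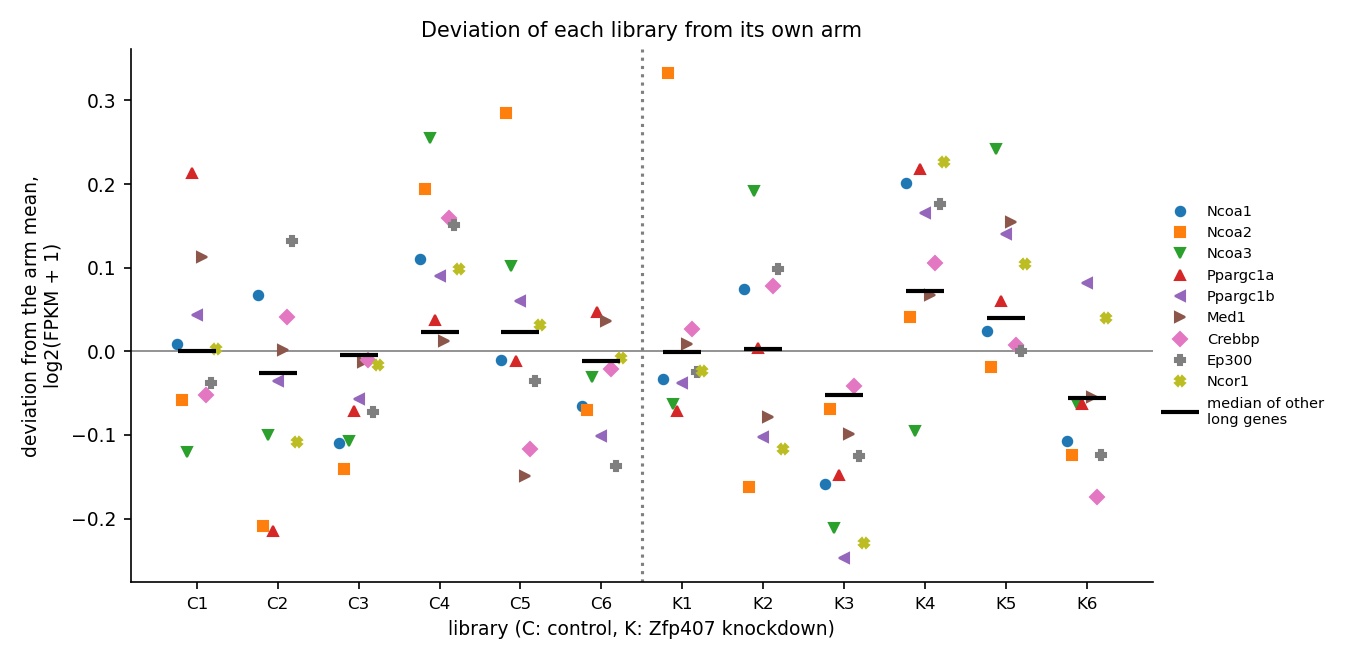
Deviation of each coregulator gene from the mean of its own arm on the log2(FPKM + 1) scale (y axis) in each of the 12 libraries (x axis; C, control; K, knockdown); bars give the median of the 4308 other long genes. All 9 genes are above 0 in control library 4 and 8 are in knockdown library 4, and 0 of 9 are in control library 3 and knockdown library 3.

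By the same deviations over the 12 libraries, the genes with patterns most like each member were searched among 9903 rows with a single gene name and a mean of at least 5 FPKM (9904 for Crebbp). For Ncoa1 these were Lpp (r = 0.982), a focal adhesion gene, and Tln2 (0.961), a talin gene, and for Ep300 they were Abi3bp (0.975) and Tmem131 (0.972). Ppargc1b was most like Tmem170b (0.936) and Cdk8 (0.934), the kinase of the Mediator module, and Ncor1 was most like Casd1 and Epb4.1l1 (0.944 each). For Ncoa2 the closest were Ctnnd1 (0.911) and Elp4 (0.886), for Ncoa3 Dcbld2 (0.884) and Mical3 (0.870), and for Ppargc1a Fam122a (0.908) and Larp7 (0.891). Crebbp was closest to Zfp362 (0.895) and Gm15035 (0.887), and Med1 to Sh3tc1 (0.884) and Zfp259 (0.859). These are the highest of many correlations over few libraries and carry no test. Any difference between the siRNAs enters them as well.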

How the data were processed

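mRNA was sequenced in 12 libraries (6 per arm). The authors deposited 1 table with an FPKM value per gene and library, made by them before deposit. Per the file headers, it also holds the authors' FPKM per arm, their log2 fold change and the p-value and q-value of their test. Per the submitters' processing notes, the tools were Cufflinks 2.0.2, TopHat2 2.0.5, SAMtools 0.1.18.0, as well as Bowtie2 2.0.0.7, in no stated order. Not given in the sources used here were settings, annotation, genome build and strandedness. Row starts match gene starts of GENCODE M21 on GRCm38 when read as counted from 0 (8207 of 18457 protein-coding rows, against 241 counted from 1), so 1 was added to each start.

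The test here was limma (version 3.58.1; R version 4.3.3; intensity trend, two-sided) on log2(FPKM + 1) over the 14706 rows with a mean of at least 1 FPKM, adjusted by Benjamini-Hochberg, with calls at an adjusted p under 0.05; the script was tested on simulated data. Rows without a gene name (3036) or with several (629) stayed in the fit but stand for no gene. Members and ratios also had exact permutation tests over 924 divisions of the libraries. FPKM values carry no read totals, so no counting interval can be given. Members, lists and tests were chosen with earlier results of these data known. Named are all members, the 4 largest falls and rises among called genes of each list, markers, Zfp407, Slc2a4 and the 2 rows most like each member; others are marked as chosen after their values were seen. Alternatives changed the pseudocount, filter, scaling, trend, minimum fold, rows tested and library set, and a block on the column number was added after seeing the data. A fit per siRNA was not run because the columns do not show the siRNA.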

Additional observations from a re-analysis of the deposited data

Results flagged for a closer look

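Among 94 sets of 6 libraries examined (1 gene in 1 arm), 5 held a library far from the others by Dixon's test. Chance flags about 1 in 20 such sets. Ncoa2 stood at 18.1 FPKM in knockdown library 1, while the other knockdown libraries lay between 12.6 and 14.6. Med24 stood at 35.9 FPKM in knockdown library 1, with the others between 15.4 and 21.3. AC116595.1 stood at 13.4 FPKM in knockdown library 1, with the others between 2.05 and 3.54. Nr1h3 stood at 41.2 FPKM in control library 2, below the others at 50.1 to 55.4, and at 26.4 FPKM in knockdown library 2, below the others at 31.6 to 34.7.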

How the results depend on the processing

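Of 188 values of the members' log2 fold changes under the alternatives, 172 kept direction and call and 12 changed sign, all of them in genes that were not called. Centring each library on its median gave 0.014 for Ppargc1a and 0.031 for Ep300, and quantile normalization gave 0.0022 for Ncoa1, 0.0028 for Ppargc1a and 0.023 for Ep300. Leaving out 1 library in turn gave −0.064 to 0.023 for Ppargc1a, −0.038 to 0.027 for Ep300 and −0.22 to −0.13 for Ncor1. The adjusted p of Ncor1 then ran from 0.0141 to 0.126, and the gene was called only without knockdown library 4. Ppargc1b (0.27 to 0.36) and Med1 (0.18 to 0.24) stayed called without any 1 library. Against a minimum fold of 1.2, the log2 fold changes of Ppargc1b (0.31) and Med1 (0.21) did not pass (adjusted p = 1 each), and 856 rows, 0 members, 0 genes of the corepressor, other coactivator, Mediator and PGC-1 lists and 2 of the nuclear receptor list did. Without 1 library, 4786 to 5525 rows, 2 to 3 members and 3 to 6 genes of the PGC-1 list were called (3 without control library 1 or 4). Of 788 values of the other named genes, 96 lost the call, 35 of them at the minimum fold, and 0 changed sign. The lowest and highest adjusted p over the alternatives were 0.00649 and 0.0130 for the ratio of Ppargc1a to Ppargc1b, and 0.00974 and 0.0357 for that of Ncor1 to the p160 genes. Crebbp, at a mean under 5 FPKM, was not tested with the filter at 5. The columns of both arms are numbered 1 to 6, but nothing says that a number marks a shared culture or day, and a replicate block on it was added after seeing the data. Deviations of same-numbered libraries correlated at 0.0770, 0.352, 0.0548, 0.170, 0.170 and 0.254 across genes, 4 of 6 over 0.1, and 8 of the 12 libraries were most like the one with their own number, a hint from the data and not from the design. With the replicate block 5700 rows and 3 members were called. Ncor1 (−0.18, lower in the knockdown library at each of the 6 column numbers) passed at an adjusted p of 0.0242. Ppargc1b (adjusted p = 0.00517) and Med1 (0.0293) stayed called, and Pprc1, Med11 and Nrf1 lost the call. The cause of these changes was not tested.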
